A study of Mus musculus with 2 samples.

Results

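Cells with a high level of Hspa1a and Hspa1b, the genes of inducible Hsp70, were examined among single GFP+ Lin- c-Kit+ leukemia splenocytes. The leukemia is driven by AE9a, a truncated AML1-ETO fusion, in fetal liver cells of genotype Usp18+/f with a Cre that tamoxifen activates. Cells of both groups started with the floxed allele and the Cre. C57BL/6 recipients received oil, which leaves the cells Usp18+/f, or tamoxifen, which deletes 1 Usp18 allele to give Usp18+/Δ, and the sort followed the first injection by 3 days. Mice were of either sex and aged 8 to 12 weeks. Cells of 3 mice were pooled per group into 1 library each, so there was no replicate and no test, and every interval here is a 95% interval for counting error only. Usp18 mRNA was higher in the library labelled tamoxifen, although 1 allele is deleted there. Among cells with neither Hspa1 transcript it stood at 24.8 CPM (UMIs per 1000000) in that library and 5.58 CPM in the library labelled oil. Isg15, an interferon-stimulated gene that Usp18 restrains, was also higher in the library labelled tamoxifen, at 117 against 20.8 CPM in the same cells. The authors likewise report higher Isg15 in every cluster when Usp18 is suppressed. The reads tag 3′ ends, and which part of Usp18 the floxed allele loses is not given in the sources used here, so Usp18 UMIs may not check the deletion. Below, oil and tamoxifen stand for the libraries with these labels.

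UMIs (unique molecular identifiers) each count 1 captured transcript. A barcode was used when it had 500 or more detected genes and no more than 10% of its UMIs from mitochondrial genes, which left 6886 from oil and 7406 from tamoxifen. A barcode was called Hspa1 high when Hspa1a plus Hspa1b reached 10 UMIs per 10000 UMIs. Of the 14292 barcodes, 205 did, 197 from oil and 8 from tamoxifen. The members therefore come almost wholly from the oil library, and results below are led by its 197 barcodes. Each was paired with a barcode of the same library that had 0 UMIs of both genes and nearly the same total. Because only 8 tamoxifen barcodes reached 10, the 799 oil barcodes with 5 to under 10 per 10000 and the 83 tamoxifen barcodes with 5 or more were matched in the same way and are given beside the members. The 197 and the 799 oil pairs shared 0 comparison barcodes. Kit was detected in 39.6% of the oil members and 43.7% of their matched barcodes, so transcripts of the sorting marker were found in both.

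Hsp70 proteins bind unfolded stretches of other proteins and release them for refolding. Hspa8 is made at all times, whereas Hspa1a and Hspa1b are switched on by heat shock factor 1 (HSF1) when unfolded protein accumulates, usually together with J-domain partners, Hsp90, chaperonins and small heat shock proteins. HSF1 binds heat shock elements built of repeated GAA units in alternating orientation. Immediate early genes such as Fos, Jun and Egr1 are another rapid response, copied within minutes of a growth signal or a stress, and their AP-1 products are pairs of Jun and Fos family proteins.

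The promoters of both Hspa1 genes and of Jun are shown because Hspa1a and Hspa1b chose the members and because the Jun window, of an immediate early gene, holds the same kind of heat shock element letters. Hspa1a lies on the minus strand of chromosome 17 (chr17:34969190-34972156, mm10) and Hspa1b beside it on the same strand (chr17:34956436-34959238), each as 1 exon. Jun is also a 1-exon gene on the minus strand (chr4:95049034-95052222). The 250 bases before each start, from RefSeq on GRCm38.p6 (chr17:34972157-34972406, chr17:34959239-34959488 and chr4:95052223-95052472, all minus strand), are given 5′ to 3′ with matches to GAANNTTC or TTCNNGAA in capitals.
Hspa1a: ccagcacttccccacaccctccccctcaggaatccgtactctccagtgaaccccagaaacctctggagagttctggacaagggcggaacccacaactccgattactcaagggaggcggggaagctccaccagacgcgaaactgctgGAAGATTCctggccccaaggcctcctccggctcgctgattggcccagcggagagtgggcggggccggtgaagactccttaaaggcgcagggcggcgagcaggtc
Hspa1b: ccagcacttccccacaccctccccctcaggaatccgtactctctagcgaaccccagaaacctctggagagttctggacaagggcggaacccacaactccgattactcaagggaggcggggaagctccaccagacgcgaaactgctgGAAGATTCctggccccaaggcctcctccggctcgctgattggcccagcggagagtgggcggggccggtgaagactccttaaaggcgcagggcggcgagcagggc
Jun: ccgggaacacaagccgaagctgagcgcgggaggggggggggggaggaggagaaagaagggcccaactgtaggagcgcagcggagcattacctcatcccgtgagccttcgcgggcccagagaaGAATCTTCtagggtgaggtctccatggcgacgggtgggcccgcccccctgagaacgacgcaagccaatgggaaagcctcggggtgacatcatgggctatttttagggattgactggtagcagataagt
The Hspa1a and Hspa1b windows differ at 3 of 250 bases. Each holds GAAGATTC, 104 bases before the start, and the Jun window holds GAATCTTC, 128 bases before its start. Both motifs read the same on the complementary strand, and 6.69% of 32851 promoters of this length hold GAANNTTC, 7.17% TTCNNGAA and 12.8% either. Of 35 heat shock list genes with a promoter in the table, 12 held either form. Of 23 immediate early genes, 3 did. These counts are of genes, some with several promoters, whereas the percentages are of single promoters, so they are not alike. The windows of Fosb, Jund, Fos and Dnajb1 held neither form, which says only that these letters are not in these 250 bases.

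The values that chose the members are described here without a test. Hspa1a plus Hspa1b gave 13559 UMIs in the kept oil barcodes, 216 CPM, and 2867 UMIs in the kept tamoxifen barcodes, 44.9 CPM. At least 1 UMI was found in 60.5% of oil barcodes and in 21.4% of tamoxifen barcodes, at median depths of 8670 and 8148 UMIs. The share of Hspa1 high barcodes was 2.86% (2.48 to 3.28) in oil and 0.108% (0.0466 to 0.213) in tamoxifen. After each barcode was thinned to 3000 UMIs, at least 3 Hspa1 UMIs remained in 7.22% of oil and 0.581% of tamoxifen barcodes, with 458 and 353 shallower barcodes left out. The library labelled oil was thus the higher one at every cut shown. With 1 library each, the injected agent, the mice and the preparation cannot be told apart as sources of this difference.

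The members formed the tail of a continuous range, not a separate group. In oil, 399 barcodes lay between 4 and 5 per 10000, 154 between 7 and 8, 63 between 9 and 10, and 93 between 10 and 12. The lowest oil member stood at 10.04 and the highest barcode outside at 9.99, and for tamoxifen these values were 10.2 and 9.76. The median oil member had 12.1 Hspa1 UMIs per 10000 and the highest had 27.5, while the highest tamoxifen barcode had 15.1. In whole transcripts the members carried a median of 8 Hspa1 UMIs (range 1 to 22), and 15 of the 197 passed on 1 or 2 UMIs because their totals were low. They made up 1.96% of the UMIs of the oil library and 11.8% of its Hspa1 UMIs.

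**Figure D1:**
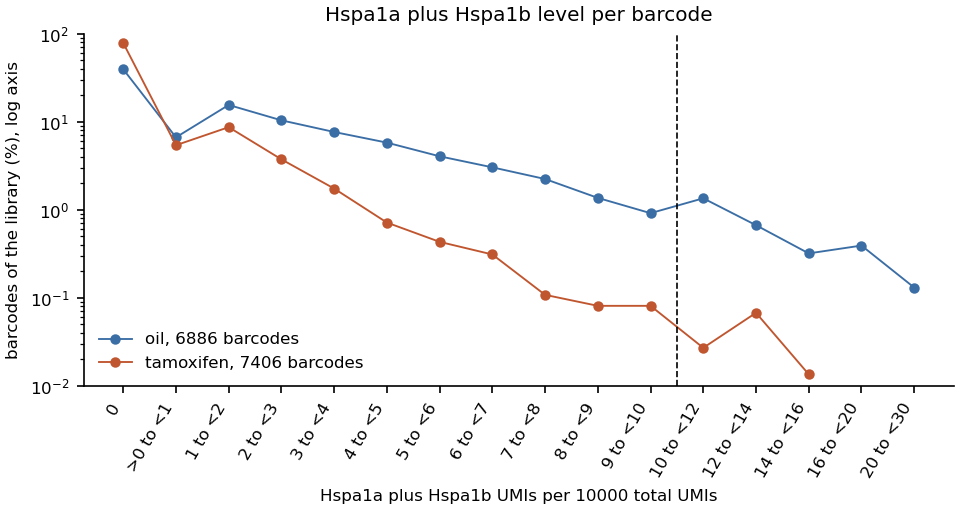
Percent of the barcodes of each library (log axis) by Hspa1a plus Hspa1b UMIs per 10000 UMIs, with the dashed line at 10. Both libraries run on across the line without a gap, and the classes are wider from the line on. Oil lies above tamoxifen in every class above 0, with 197 and 8 barcodes to the right of the line.

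Hspa1a took a larger part of the pair's UMIs in barcodes with more of both. Its share was 17.1% in oil barcodes above 0 and under 5 per 10000, 25.6% from 5 to under 10 and 34.6% in the members. In tamoxifen the same classes gave 12.4%, 23.6% and 24.5%, the last from only 49 UMIs. The pair was found together in 145 of the 197 oil members, while 45 had Hspa1b alone and 7 Hspa1a alone. The coding sequences of the pair are nearly identical, and reads that fit both genes are normally not counted, so the split between them is less certain than their sum.

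The summed list of other heat shock genes differed little where Hspa1a and Hspa1b were high. A list of 45 chaperone, co-chaperone, ubiquitin and heat-inducible genes, without the pair itself, summed to 16263 UMIs in the oil members and 16029 in their matched barcodes, a log2 ratio of 0.02 (-0.01 to 0.05). Abundant genes led this sum: Hsp90aa1, Hsp90ab1, Hspa8 and Ubb gave 3063, 3032, 1592 and 1661 UMIs in the members. Of the 35 list genes with at least 20 CPM, 17 were higher and 18 lower, with a median of -0.02 beside 0.01 over all genes. Only 2 were at least 1.5-fold higher, Hsf1 at 0.63 and Hspbp1 at 0.59, with intervals that include 0, and none was 1.5-fold lower. Over all 5954 genes compared, 3.46% were at least 1.5-fold higher, 2.07% at least 1.5-fold lower and 53.7% higher by any amount. The list gave 0.03 (0.02 to 0.05) in the 5 to under 10 oil barcodes and 0.03 (-0.01 to 0.08) in the tamoxifen barcodes with 5 or more. In the first of these 19 of 35 genes were higher, beside 52% of all 5970 genes, and none was 1.5-fold apart, beside 0.117% higher and 0.0838% lower. In tamoxifen 20 of 34 were higher, beside 51.5% of all 6071 genes, with a median of 0.10 beside 0.00 over all genes. There 2 were at least 1.5-fold higher, the J-domain gene Dnaja4 at 0.78 (0.04 to 1.56) and the Hsp70 gene Hspa2 at 0.62 (-0.38 to 1.66), beside 6.59% of all genes, and none was 1.5-fold lower, beside 7.12%. These shares lie near those over all genes. The upper ends of the 3 intervals thus lie at 0.08 or below on the log2 scale.

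Dnajb1, the J-domain partner of inducible Hsp70 and one of the most heat-responsive genes, had 96 UMIs in the oil members and 85 in the matched barcodes. These are 78.4 and 69.3 CPM, a log2 ratio of 0.18 (-0.26 to 0.62). It was detected in 70 of the 197 members, 35.5%, and in 60 matched barcodes, 30.5%, and these shares overlap in their intervals. Hsph1, an Hsp110 protein that renews the nucleotide on Hsp70, had 48 against 38 UMIs, a log2 ratio of 0.34 (-0.31 to 0.99). The constitutive Hspa8 gave -0.05 (-0.15 to 0.05) at 1300 against 1344 CPM. Hspa9, the mitochondrial Hsp70, gave -0.34 (-0.63 to -0.06), and Hspa4, another Hsp110 relative, -0.24 (-0.53 to 0.04). None of the 7 Hsp70 family genes with at least 20 CPM thus reached 1.5-fold, and the 8 genes of the family together gave -0.06 (-0.15 to 0.02). Hspa1l, which lies in the same gene cluster, was at 0 UMIs in members and matched barcodes.

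Hsp90 genes and Ubb stood slightly higher in the members and chaperonins slightly lower. Hsp90aa1, the heat-inducible cytosolic Hsp90, had 2501 CPM in the oil members and 2288 CPM in their matched barcodes, a log2 ratio of 0.13 (0.05 to 0.20). It gave 0.11 (0.08 to 0.14) in the 5 to under 10 oil barcodes and 0.10 (-0.005 to 0.21) in tamoxifen, so the direction was shared and the size small. Hsp90ab1, the constitutive form, gave 0.09, 0.02 and -0.10 in the same order. Ubb, a polyubiquitin gene that heat induces, gave 0.17, 0.08 and 0.14. The ubiquitin genes of the list together gave 0.21 (0.12 to 0.30), 0.10 (0.06 to 0.13) and 0.20 (0.06 to 0.33), and so were higher in each set. The chaperonins summed to -0.14 (-0.21 to -0.06) in the oil members, but to 0.00 and 0.04 in the other comparisons, so their direction was not shared. Of the small heat shock proteins, whose genes are among the most strongly induced by HSF1, Hspb1 was at 0 of 197 members, and with Hspb8 and Cryab gave 0 UMIs in members and 1 in matched barcodes. Bag3, a co-chaperone that HSF1 also induces, had 16 against 14 UMIs.

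The summed immediate early list, in contrast, was higher where Hspa1a and Hspa1b were high. The list of 27 genes had 1977 UMIs in the oil members and 1326 in the matched barcodes, 1614 and 1081 CPM, a log2 ratio of 0.58 (0.48 to 0.68). Jund alone gave 680 of these UMIs in the members and 377 in the matched barcodes, and the list was not summed without it. Of the 11 genes with at least 20 CPM, 9 were higher, and 4 were at least 1.5-fold higher: Jun, Jund, Fosb and Klf6. That is 9 and 4 of 11 beside 53.7% and 3.46% of all genes. The sum was 0.41 (0.36 to 0.46) in the 5 to under 10 oil barcodes, where 9 of 10 genes were higher, beside 52% of all 5970 genes, and 2 were 1.5-fold higher, beside 0.117%. None was 1.5-fold lower there, beside 0.0838%. It was 0.60 (0.42 to 0.77) in the tamoxifen barcodes with 5 or more, where 9 of 11 were higher, beside 51.5% of all 6071 genes, and 4 were 1.5-fold higher, beside 6.59%. None was 1.5-fold lower there, beside 7.12%. Of the 4, Jun and Fosb passed 20 CPM only through the barcodes with 5 or more, since their matched barcodes lay under it. The direction was thus the same in 3 sets of pairs, of which the oil sets share no barcode and the tamoxifen set comes from another library.

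**Figure D2:**
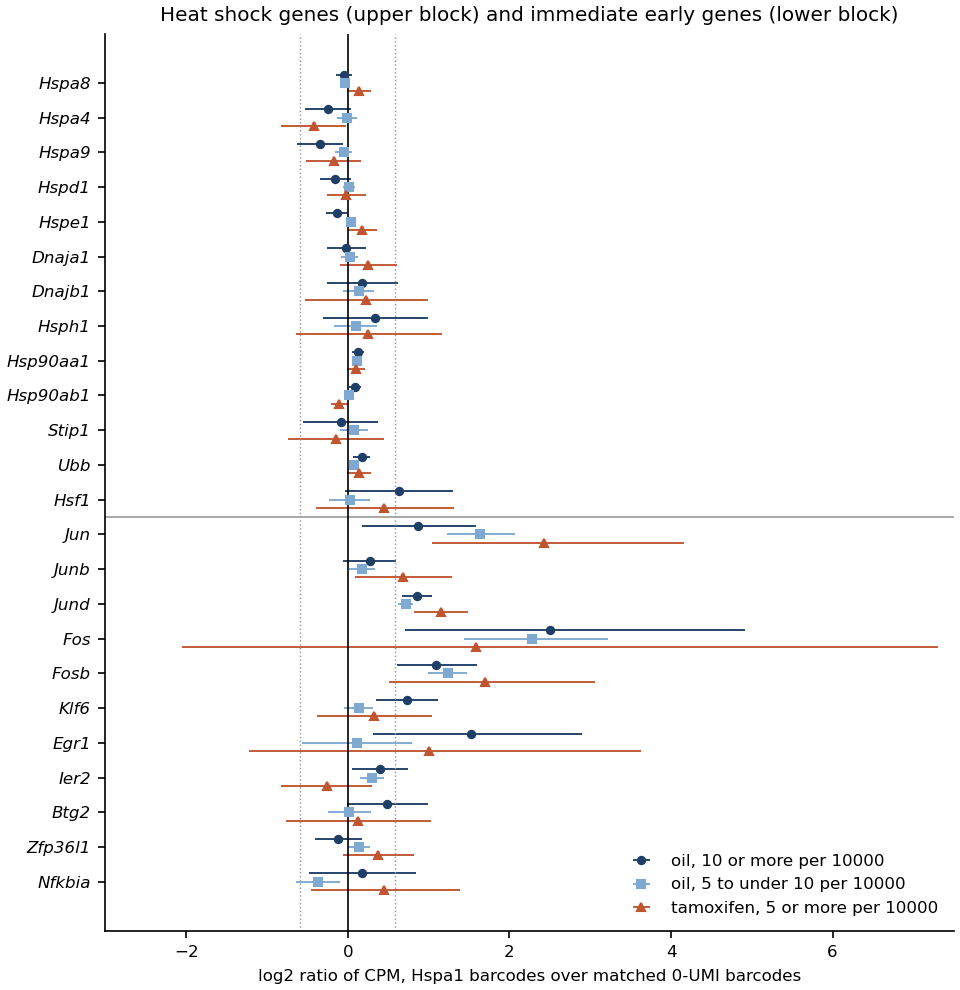
Log2 ratio of each gene over matched barcodes with neither Hspa1 transcript, with 95% counting intervals, for heat shock genes (upper block) and immediate early genes (lower block), in oil members, oil barcodes with 5 to under 10 and tamoxifen barcodes with 5 or more. Of the heat shock genes drawn, Hsf1 in the oil members, at 0.63, is the only one past a dotted 1.5-fold line, whereas Jun, Jund and Fosb lie to the right of that line in each set.

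The AP-1 genes carried most of this difference. The 7 genes of this class had 1033 UMIs in the oil members and 607 in the matched barcodes, a log2 ratio of 0.77 (0.62 to 0.92), with 0.71 (0.64 to 0.79) in the 5 to under 10 barcodes and 1.13 (0.87 to 1.40) in tamoxifen. Fosb, a Fos family partner that binds DNA with a Jun protein, had 111 UMIs against 52, or 90.6 against 42.4 CPM, which is 1.10 on the log2 scale (0.61 to 1.60). The other sets gave 1.23 (0.996 to 1.48) from 480 against 204 UMIs and 1.70 (0.52 to 3.06) from 26 against 8. Fosb was thus more than doubled in each set. Jund, the most abundant Jun family gene here and the least dependent on acute signals, had 680 against 377 UMIs, or 555 against 307 CPM, which is 0.85 on that scale (0.67 to 1.04). It gave 0.72 (0.62 to 0.81) and 1.15 (0.82 to 1.48) in the other sets, and it was found in 165 members, 83.8%, against 123 matched barcodes, 62.4%. Jund therefore differed in many cells and not in a few.

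Jun, whose promoter is printed above and whose protein is the classical partner of Fos, had 51 UMIs in the oil members against 28, or 41.6 against 22.8 CPM, a log2 ratio of 0.87 (0.17 to 1.59). In the 5 to under 10 barcodes it had 199 against 64 UMIs, 1.64 (1.22 to 2.07), at a mean under 20 CPM and so outside the counts above. In tamoxifen it had 27 against 5 UMIs, 2.43 (1.04 to 4.17). Jun was thus higher in all 3 sets, although 1 barcode gave 11.8% of its UMIs in the oil members, where the value without it was 0.69 (-0.02 to 1.43), and 22.2% in tamoxifen, where it was 2.10 (0.65 to 3.86). Among the 31 oil members with at most 5% mitochondrial UMIs Jun gave 0.0011 (-3.79 to 3.79). Fos, the prototype immediate early gene, was scarce: 17 against 3 UMIs in the oil members, a log2 ratio of 2.50 (0.71 to 4.92), and 68 against 14 in the 5 to under 10 barcodes, 2.28 (1.44 to 3.23). In tamoxifen it had 3 against 1 UMI, with an interval of -2.05 to 7.30. Junb, a Jun relative often induced by cytokines, gave 0.27, 0.18 and 0.68, of which only the last reached 1.5-fold.

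The other immediate early classes were less uniform. Klf6, a zinc finger factor, had 156 against 94 UMIs in the oil members, a log2 ratio of 0.73 (0.35 to 1.12), but 0.14 and 0.32 in the other sets. Egr1, a zinc finger factor downstream of growth factor signals, had 23 against 8 UMIs in the oil members, 40 against 37 in the 5 to under 10 barcodes and 6 against 3 in tamoxifen. Its difference was therefore seen in the oil members and not in the larger oil set. Klf2 had 26 against 4 UMIs, of which 34.6% came from 1 barcode, then 64 against 6, and 0 in both tamoxifen groups. The feedback regulators, which shut these responses down again, summed to 0.27 (0.11 to 0.42), 0.13 (0.06 to 0.20) and 0.15 (-0.10 to 0.39). Among them Ier3 gave 0.49, 0.08 and 0.26. Nfkbia, the inhibitor that NF-κB induces, gave 0.18, -0.37 and 0.45, and Ier2 gave 0.40, 0.30 and -0.26, so neither kept a direction. Atf3, Klf4 and Nr4a1, genes of acute stress or signaling, gave 0 UMIs in the oil members.

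Levels across the whole range of Hspa1a plus Hspa1b gave the same order. In the oil barcodes with 0, above 0 to under 5, 5 to under 10, and 10 or more per 10000, Fosb stood at 30.8, 43.4, 70.0 and 90.6 CPM and Jun at 10.6, 17.6, 29.0 and 41.6 CPM. Jund stood at 217, 242, 353 and 555 CPM, and Fos at 2.16, 3.55, 9.92 and 13.9 CPM. Each of these 4 AP-1 genes was thus higher in every next class, but between the last 2 classes only the intervals of Jund did not overlap. Junb stood at 77.6, 72.3, 93.8 and 140 CPM and so did not follow this order at the low end. Dnajb1 went from 62.7 and 62.8 to 70.3 and 78.4 CPM, and its intervals in the last 2 classes overlap as well. Hspa8 stood at 1435, 1550, 1393 and 1300 CPM and so was lowest in the members. These classes were not matched on depth, and their median totals were 7652, 9880, 7952 and 6021 UMIs. In tamoxifen, Fosb was at 24.5, 25.03 and 42.0 CPM and Jun at 11.5, 11.02 and 38.3 CPM in the first 3 classes, so there the step came only above 5. The last tamoxifen class, of 8 barcodes, rests on 3 Fosb and 6 Jun UMIs, the latter all from 1 barcode.

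**Figure D3:**
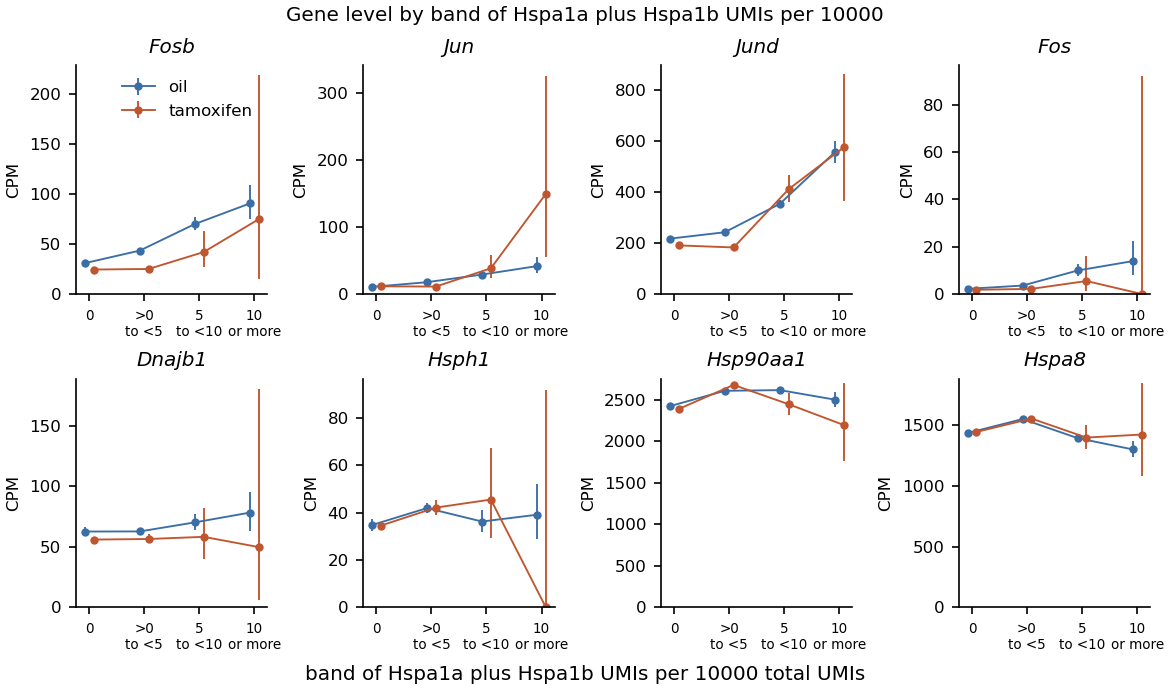
Level (CPM, each axis from 0) of 4 AP-1 genes (upper row) and 4 heat shock genes (lower row) in barcodes grouped by Hspa1a plus Hspa1b UMIs per 10000, with exact 95% Poisson intervals. In oil Fosb goes from 30.8 to 90.6 CPM while Hspa8 goes from 1435 to 1300 CPM, and the tamoxifen points at 10 or more rest on 8 barcodes.

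The immediate early difference was spread over many barcodes. At least 1 UMI of Jun, Fos or Fosb was found in 83 of the 197 oil members, 42.1% (35.2 to 49.4), and in 48 of the matched barcodes, 24.4% (18.5 to 31.0). The shares were 41.8% of 799 against 20.9% in the next oil class, and 30.1% of 83 against 10.8% in tamoxifen. More barcodes of each set than of its matched barcodes thus carried these transcripts, but in each set most showed none at this depth. The immediate early list had a median of 13.8 UMIs per 10000 in the oil members (quartiles 8.16 and 21.0) and 9.15 in the matched barcodes (4.77 and 14.04). The heat shock list had medians of 125 and 131. The interquartile ranges overlap for both lists, and only the first was shifted upward.

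**Figure D4:**
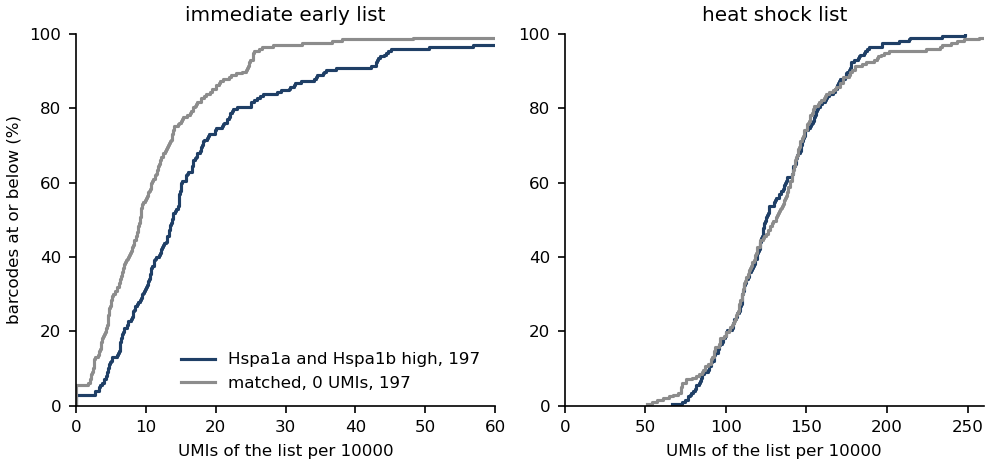
Cumulative percent of barcodes by summed UMIs per 10000 of the immediate early list and of the heat shock list, for the 197 oil members and their matched barcodes, with a few barcodes beyond the axis ends. The immediate early curve of the members lies to the right, with medians of 13.8 and 9.15, while the heat shock curves run close together at 125 and 131.

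Measures of RNA quality differed somewhat between members and matched barcodes. The median mitochondrial share was 6.74% in the oil members and 6.31% in the matched barcodes. All 13 mitochondrially encoded genes were higher, by 0.08 in sum, beside 53.7% of all genes. Their sum was also higher by 0.04 in the 5 to under 10 barcodes, with 11 of 13 higher, beside 52%. In tamoxifen it gave -0.02, with 7 of 13 higher, beside 51.5%. Ribosomal protein genes gave -0.10 in sum in the oil members, with 5 of 88 higher, beside 53.7% of all genes. Malat1, a long RNA kept in the nucleus, gave 0.38, 0.24 and 0.55 in the 3 sets, and Neat1, the RNA scaffold of paraspeckles, 0.72, 0.37 and 0.92. These 2 nuclear RNAs were thus higher in each set, and their part in the results above was not tested. Barcodes under 3% mitochondrial UMIs were 15 of the oil members and 22 of the matched barcodes. Without such barcodes the immediate early list gave 0.56 (0.46 to 0.67), 0.39 (0.34 to 0.44) and 0.68 (0.50 to 0.85), and the heat shock list 0.04, 0.03 and 0.03. Doublet scores above the 95th percentile of the library were found in 6 of the 197 members, and the libraries shared 15 barcode sequences, 0 of them members.

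The summed stress, p53 and proteasome lists stayed within 0.12 of 0 in every set. Endoplasmic reticulum stress genes gave 0.08, -0.08 and 0.09, the first becoming -0.02 without 1 barcode, oxidative stress genes 0.03, -0.05 and 0.07, proteasome subunits 0.03, 0.01 and 0.06, and p53 targets -0.08, -0.04 and 0.12. Hspa5, the Hsp70 of the endoplasmic reticulum, gave 0.28, -0.16 and 0.81, with 19.4% of its UMIs in the oil members from 1 barcode. S phase genes gave 0.06, 0.12 and 0.07. Mitotic genes gave -0.05 (-0.13 to 0.03), -0.06 (-0.09 to -0.03) and -0.43 (-0.53 to -0.32), the first being 0.01 (-0.06 to 0.09) and the last -0.32 (-0.43 to -0.21) without 1 matched barcode. The mitotic sum was thus lower in tamoxifen and in the 5 to under 10 barcodes, and its ratio was near 0 in the oil members. Its intervals leave out the spread between cells, which was wide. On the scale of the Hspa1 rate, mitotic UMIs in tamoxifen averaged 20.7 (standard deviation 35.4), against 23.9 (32.8) in matched barcodes. In the 5 to under 10 barcodes these values were 25.9 (31.2) and 27.7 (30.8). Whether cells differed beyond this spread was not tested. Interferon-stimulated genes, which Usp18 restrains, gave 0.04 (-0.11 to 0.18), 0.18 (0.12 to 0.25) and 0.40 (0.27 to 0.53), the last with 14.1% of UMIs from 1 barcode and 0.21 (0.07 to 0.34) without it. In tamoxifen the 8 barcodes with 10 or more held 315 of the 1132 UMIs, and the other 75 gave -0.0041 (-0.15 to 0.14) over their own matched barcodes. The interferon list was thus higher with an interval off 0 in the 5 to under 10 oil barcodes, but not in the tamoxifen barcodes of that class. Genes of leukemia progenitors gave 0.00, -0.08 and 0.02. Markers of other cell types were almost absent from the oil members: 13 UMIs of 9 neutrophil genes, 9 of 9 macrophage genes, 12 of 9 T and NK genes, 2 of 6 B cell genes and 0 of 4 endothelial genes, against 3, 10, 14, 0 and 1 in the matched barcodes. The neutrophil sum was the only one of these with an interval off 0 (2.12, 0.25 to 4.57), and without the barcode that gave 15.4% of it the interval included 0 (1.88, -0.04 to 4.37).

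**Figure D5:**
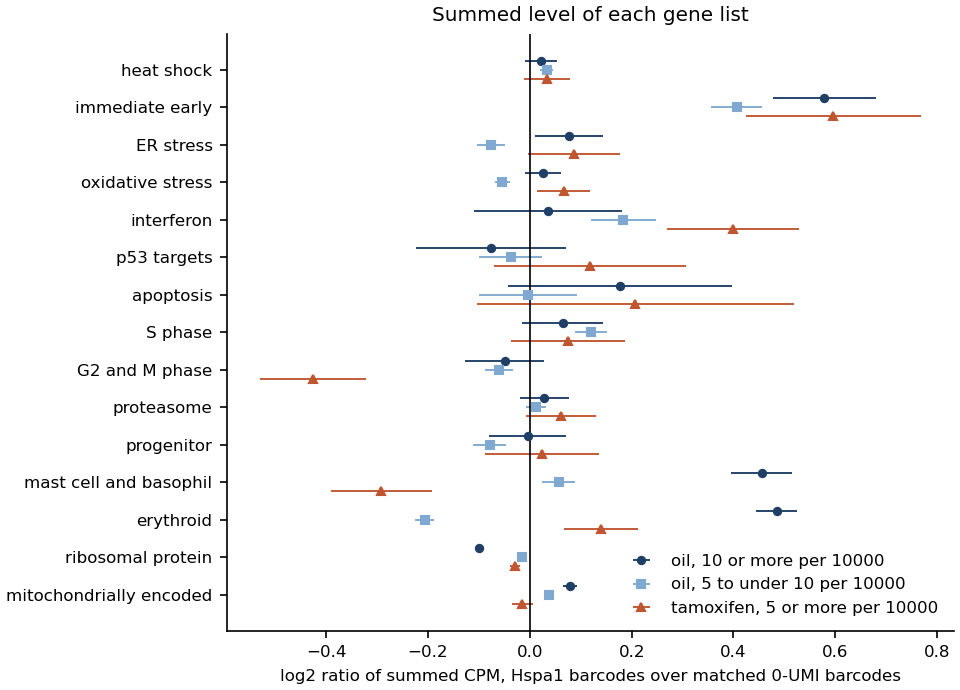
Log2 ratio of the summed UMIs of each gene list over matched barcodes, with 95% counting intervals, in oil members, oil barcodes with 5 to under 10 and tamoxifen barcodes with 5 or more. The immediate early list lies at 0.58, 0.41 and 0.60, while the heat shock list lies at 0.02, 0.03 and 0.03.

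Genes at least 1.5-fold apart in the same direction in all 3 sets were few. Among 5598 genes compared in each, 3 were higher, 0.0536%, and 1 was lower, 0.0179%. The higher ones were Fosb, Jund and Mcpt1, and the lower one was Cyp11a1. Without the Hspa1-positive barcode with the most UMIs of the gene, Fosb, Jund and Cyp11a1 stayed past 1.5-fold in each set. Mcpt1 instead gave 0.54 (0.42 to 0.66) in the 5 to under 10 barcodes and turned to -1.64 (-2.63 to -0.75) in tamoxifen. Cyp11a1, which makes pregnenolone from cholesterol in mitochondria and is also expressed by mast cells (chr9:58006411-58027023, 9 exons), had 99 UMIs in the oil members against 263, a log2 ratio of -1.41 (-1.76 to -1.07). It had 720 against 1223 in the 5 to under 10 barcodes, -0.76 (-0.90 to -0.63), and 134 against 266 in tamoxifen, -0.99 (-1.30 to -0.68). Cyp11a1 was thus the clearest gene on the low side in these sets, although it gave 0.74 in the 9 oil members at 20 or more. Fcer1a, the α chain of the IgE receptor of mast cells and basophils, gave -0.34, -0.59 and -0.22.

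Mast cell proteases were higher beside Hspa1a and Hspa1b in oil. Mcpt1, a mucosal mast cell protease, had 961 against 472 UMIs in the oil members, a log2 ratio of 1.03 (0.87 to 1.19), of which 12.5% came from 1 barcode. It gave 0.68 in the 5 to under 10 barcodes and 0.65 in tamoxifen, where 79.7% of its 69 UMIs came from 1 barcode. It was detected in 35.5% of the oil members and 16.8% of their matched barcodes, but in 23.7% and 23.8% of the next oil class, and in tamoxifen in 10.8% and 15.7%. The tamoxifen value thus rests on 1 barcode, without which 14 UMIs stand against 44. The Mcpt1 difference therefore rests on fewer cells than that of Jund. Its neighbour Mcpt2 gave 1.17 and 1.26 in oil and -1.86 in tamoxifen, the last being -1.23 (-1.94 to -0.56) without 1 matched barcode. Mcpt2 was found there in 11 of 83 barcodes and in 15 of the matched ones. The mast cell and basophil list gave 0.46, 0.06 and -0.29, and the erythroid list 0.49, -0.21 and 0.14, where 1 barcode gave 11.9% of the tamoxifen UMIs and the value without it was -0.03 (-0.10 to 0.05). Of 9 mast cell and basophil genes with at least 20 CPM in the oil members, 5 were higher, beside 53.7% of all genes, and 4 lower. The median of the 9 was 0.10 beside 0.01 over all genes. Among these Mcpt4 gave 2.14 from 88 against 20 UMIs, 51.1% of the 88 from 1 barcode, and -2.38 from 5 against 26 in tamoxifen. In the 5 to under 10 barcodes the mast cell and basophil value had an interval of 0.02 to 0.09. Both sums were thus higher in the oil members, and of the other sets the mast cell and basophil list was below 0 in tamoxifen and the erythroid list in the 5 to under 10 barcodes. Hba-a1, an α globin gene, gave 1.26, -0.26 and 0.09.

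The rule for named genes ranked genes outside the heat shock and immediate early lists with at most 10% of UMIs from 1 barcode. Their 10 largest differences in each direction in the oil members ran from 1.08 to 1.45 and from -1.41 to -0.90. S100a6, a calcium-binding protein, led the higher ones at 1.45 (1.17 to 1.74; 391 against 143 UMIs), with -0.01 and -0.36 in the other sets. Vamp7, a vesicle fusion protein, gave 1.26, 0.11 and 1.17. Myo9a, an unconventional myosin, led the lower ones at -1.41 from 15 against 40 UMIs, with 0.25 and 0.09 elsewhere. Of the 10 higher genes, 5 kept their direction in the 5 to under 10 oil barcodes and 5 in tamoxifen. Of the 10 lower ones, 4 and 5 did. The counts of the higher ones include Pias4 in the oil barcodes, at 168 against 168 UMIs, and Lman2l in tamoxifen, at 15 against 15. The named genes thus kept their direction about as often as not, unlike the AP-1 genes. The rule as first written asked for the same direction in both libraries at 10 or more and a UMI from enough tamoxifen members, which no higher gene could meet with 8 barcodes.

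The 8 tamoxifen members were few and unlike one another. They had 10.2 to 15.1 Hspa1 UMIs per 10000 from 1, 2, 7, 14, 12, 4, 4 and 5 UMIs, in order of decreasing rate. Their totals ran from 662 to 11300 UMIs, and the 2 with the highest rates had 0.151% and 0.763% mitochondrial UMIs. Jun was found in 1 of them, with 6 UMIs, and that barcode also held 90 of their 113 Isg15 UMIs. The immediate early list gave 62 against 27 UMIs, a log2 ratio of 1.20 (0.53 to 1.91), and 0.72 (-0.06 to 1.52) without the barcode with the most. The heat shock list gave 487 against 552 UMIs, -0.18 (-0.36 to 0.00), and 0.02 (-0.18 to 0.23) without the barcode with the most. With so few cells, 32.9% of 6014 genes were at least 1.5-fold higher and 29.4% lower than in the matched barcodes, so single genes are not read from them.

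Between libraries, both lists were compared within classes of the Hspa1 rate. Among the members, 8 from tamoxifen and 197 from oil, the log2 ratio of tamoxifen over oil was -0.06 (-0.45 to 0.30) for the immediate early list and -0.13 (-0.26 to 0.00) for the heat shock list. Of 9 alternatives for the immediate early value, which ran from -1.38 to 0.00, 1 was above 0. Among barcodes with 5 or more per 10000, 83 from tamoxifen and 996 from oil, the immediate early list was at 1193 CPM in tamoxifen and 1193 CPM in oil, a log2 ratio of 0.00 (-0.11 to 0.11). The heat shock list gave 0.00 (-0.04 to 0.03). In the barcodes with neither transcript the immediate early list gave -0.08 (-0.11 to -0.05) and the heat shock list 0.02 (0.02 to 0.03). Both lists thus also differed little between the libraries in barcodes without Hspa1 transcripts. Fosb was lower in tamoxifen in both classes, at -0.73 (-1.35 to -0.16) and -0.33 (-0.47 to -0.19). Interferon-stimulated genes were higher in tamoxifen in both, at 1.64 and 1.23, and Usp18 itself at 2.65 (1.83 to 3.42) and 2.15 (1.88 to 2.44). Over all genes 4.53% of 6023 were at least 1.5-fold higher and 3.54% lower in tamoxifen among barcodes with 5 or more. Among barcodes with neither, these were 0.718% and 0.134% of 5988.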

How the data were processed

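Per the file headers, the authors counted 10x Genomics 3′ V3 reads with Cell Ranger 3.0.2, and per the labels against mm10, with Seurat named for later steps. The deposited values are raw UMI counts per gene and barcode, 63690481 over 7281 barcodes (oil) and 65146263 over 7833 (tamoxifen). Members and gene lists were chosen with earlier results of these data known, and the set with 5 to under 10 per 10000 was added after seeing them. Each member was matched without replacement, the deepest first, to the nearest barcode with 0 Hspa1a and Hspa1b UMIs within 0.05 in log10 total UMIs. UMIs were summed over barcodes and scaled to CPM without the UMIs of the pair. Genes with at least 20 CPM over the barcodes compared were counted, at a fold of 1.5. Intervals are exact Poisson, Clopper-Pearson or conditional binomial. They leave out the spread between cells, mice and libraries, and PCR or capture biases. Transcripts free in the droplet fluid were not removed, and no cell type that lacks these genes was present to give their share. For doublets, Scrublet scores were computed (scanpy 1.11.5, 6% expected). Its own threshold marked 0.0436% and 0.027% of barcodes, under the 0.5% of a working call, so none was removed and scores above the 95th percentile were left out as an alternative. The functions were checked on simulated data. Promoters are from a RefSeq table and gene coordinates from the annotation of the same build. Protein sequences were not used here. Named genes were the fixed lists and then the 10 largest differences in each direction. Python 3.11.15, numpy 2.4.6 and scipy 1.17.1 were used. 1 gene of the heat shock list is not reported here by name.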

Additional observations from a re-analysis of the deposited data

Results flagged for a closer look

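5 results had opposite directions in the libraries among barcodes with 5 or more Hspa1a plus Hspa1b UMIs per 10000 over matched barcodes with neither, with every counting interval off 0. The difference between libraries was not tested in any of them, since each group is 1 library. The oxidative stress list gave a log2 ratio of -0.037 in oil and 0.067 in tamoxifen. The mast cell and basophil list gave 0.15 and -0.29, the latter being -0.13 (-0.23 to -0.02) without 1 barcode. The erythroid list gave -0.084 and 0.14, but the tamoxifen value was -0.03 (-0.10 to 0.05) without 1 barcode that gave 11.9% of its UMIs. Mcpt2, a mast cell protease, gave 1.24 from 1626 against 690 UMIs in oil and -1.86 from 27 against 98 UMIs in tamoxifen. The tamoxifen value was -1.23 (-1.94 to -0.56) without the matched barcode that gave 35 of the 98. It was -2.69 (-3.59 to -1.90) without the barcode that gave 12 of the 27. Hbb-bs, an adult β globin gene, gave -0.081 in oil and 0.41 in tamoxifen, where 23.96% of its UMIs came from 1 barcode. The value without that barcode was not computed, so the direction in tamoxifen may rest on it.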

How the results depend on the processing

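No paired analysis was possible because neither group has a second library, so that no value here has a test. Under every alternative run, the immediate early list stayed above 0 in the oil members, from 0.41 to 1.99. The share of Hspa1 high barcodes moved with the cut on the rate. At 5 per 10000 it was 14.5% in oil and 1.12% in tamoxifen, at 20 it was 0.131% and 0, and after thinning to 3000 UMIs 7.22% and 0.581%. At most 5% mitochondrial UMIs gave 0.403% in tamoxifen. The heat shock list gave 0.061 in oil at 20, -0.047 without matching and -0.021 as a mean over barcodes. In tamoxifen it gave 0.034 at 5, 0.13 at most 5% mitochondrial UMIs, 0.0015 with 3 comparison barcodes, 0.048 from 5 to under 10 and 0.023 without the leading barcode. The immediate early list gave 0.45 in oil at 5, 1.99 at 20, 1.12 at most 5% mitochondrial UMIs (31 members), 0.95 without matching and 0.41 from 5 to under 10, and 0.42 in tamoxifen at most 5% mitochondrial UMIs (3 members). Of genes, 206 were higher and 123 lower by 1.5-fold in the oil members, 3.46% and 2.07% of 5954, and 61 and 28 in both libraries. In the same order the counts were 8, 2, 4 and 2 at 5 per 10000, 1575, 1094, 426 and 271 at most 5% mitochondrial UMIs, 416, 304, 109 and 80 as means over barcodes, 7, 5, 3 and 2 from 5 to under 10, 1390, 1086, 284 and 201 with genes from 1 CPM, 37, 12, 10 and 3 from 50 CPM, and 27, 6, 5 and 1 at 2-fold. At 20 per 10000 the oil counts were 2181 and 1779. With 3 comparison barcodes 74 were higher in oil and 20 in both. Without matching 94 were higher in oil, and 39 higher and 87 lower in both. Leaving mitochondrial, ribosomal and haemoglobin genes out of the total gave 277 lower in oil and 49 in both. In the 8 tamoxifen members alone 32.9% of 6014 genes were higher and 29.4% lower by 1.5-fold. The counts in both libraries therefore do not measure agreement between them. Tamoxifen over oil among members was -1.38 for the immediate early list at most 5% mitochondrial UMIs, and for the heat shock list 0.36 there, 0.022 as a mean over barcodes and -0.43 with median-of-ratios factors.

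Of values with a counting interval off 0, these changed sign in oil. Endoplasmic reticulum stress genes gave -0.050 at 5, -0.098 at most 5% mitochondrial UMIs, -0.075 without matching, -0.034 as a mean over barcodes, -0.076 from 5 to under 10 and -0.018 without the leading barcode. The erythroid list gave -0.084 at 5, -0.38 at most 5% mitochondrial UMIs and -0.21 from 5 to under 10, and Hbb-bs -0.081, -1.10 and -0.24. Hspe1 gave 0.0089 at 5, 0.034 when matched on the mitochondrial share and 0.040 from 5 to under 10. Hsp90ab1 gave -0.047 without matching and Cyp11a1 0.74 at 20, where 9 members are left. From 5 to under 10, S100a6 gave -0.0054 and Hba-a1 -0.26. At most 5% mitochondrial UMIs, Vamp7 gave -0.58 and 1700006J14Rik -0.999. Myo9a gave 0.088 at 5, 2.001 at most 5% mitochondrial UMIs and 0.25 from 5 to under 10. In tamoxifen the interferon list gave -1.34 at most 5% mitochondrial UMIs and -0.0041 from 5 to under 10. Of values with an interval that includes 0, Dnajb1 gave -0.997 and Hsph1 -0.58 at 20 in oil, Hspa8 0.023 there and 0.019 with 3 comparison barcodes, and the mitotic list 0.013 without 1 barcode. The causes were not tested.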

Other observations

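The barcodes left out by the filters also held Hspa1 high ones by the same rate. In oil these were 10 of 161 barcodes with over 10% mitochondrial UMIs, 6.21% (3.02 to 11.1), and 10 of 234 with under 500 genes, 4.27% (2.07 to 7.72). In tamoxifen they were 2 of 242, 0.826%, and 1 of 185, 0.541%. The barcodes with under 500 genes had medians of 629.5 UMIs in oil and 691 in tamoxifen, at which 1 Hspa1 UMI is enough to pass.

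At 3000 UMIs per barcode, the variance of Hspa1a plus Hspa1b over barcodes was 1.84 times its mean in oil and 1.47 times in tamoxifen. For Dnajb1 it was 1.02 and 0.997 times the mean, close to the value of 1 that counting alone gives. The more abundant Hspa8 gave 1.86 and 1.80, and Hsp90aa1 gave 1.80 and 2.003. Jund gave 2.15 and 1.76, Jun 1.43 and 1.51, and Fosb 1.41 and 1.46. Divided by the squared mean instead, the variance beyond counting was 1.22 and 3.69 for the pair, 0.20 and 0.19 for Hspa8, and 0.11 and 0.14 for Hsp90aa1. On this measure Jund gave 1.33 and 1.17, Fosb 3.04 and 5.97, and Jun 7.63 and 13.3. Relative to its level the pair thus varied more than the abundant Hspa8 and Hsp90aa1 and less than the scarce Jun and Fosb.

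1700006J14Rik, an unnamed transcript, was chosen after its values were seen. It had 34 UMIs in the oil members against 18, 203 against 100 in the oil barcodes with 5 to under 10, and 16 against 5 in tamoxifen, with log2 ratios of 0.92, 1.02 and 1.68, the last below 20 CPM.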
